A study of Mus musculus with 8 samples.

Results

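The genes described here are 35 markers of macrophages and other leukocytes, measured in tongue buds of mouse embryos at embryonic day 13.5. They were taken as a named list, through probe sets whose annotation names exactly 1 gene, with the brightest probe set standing for each gene. All 35 were measured, among 18193 genes in all. The 4 control embryos carried Alk5 fl/fl, in which Alk5, the type I TGF-beta receptor encoded by Tgfbr1, is flanked by loxP sites in every cell. The 4 mutant embryos carried the same floxed alleles with the Wnt1-Cre transgene. All 8 were on the C57BL/6J strain, and their sex was not determined, per the labels. Wnt1-Cre acts in neural crest cells, which form most of the tongue mesenchyme, and there was no group with Cre alone. The series was made to study how TGF-beta signalling in the neural crest bears on the muscle precursors of the tongue.

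Macrophages enter embryonic organs from the yolk sac and the fetal liver and are not descendants of the neural crest, so the transgene is not designed to delete Alk5 in them. They depend on the receptor Csf1r, which binds the growth factor Csf1, and on the transcription factor PU.1, the product of Spi1. In growing tissue they take up dying cells, make most of the complement protein C1q and carry Fc receptors that signal through small adaptor proteins. Levels are log2 array signals, in which a difference of 1 is a doubling, and signals of different genes are not set against each other because probes differ in brightness.

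The 8 arrays had medians of 5.96 to 6.01. Pearson correlations over probe sets were 0.990 to 0.996 between the groups, 0.992 to 0.997 among controls and 0.995 to 0.998 among mutants. The brightest Tgfbr1 probe set, 1420895_at, was higher in mutants by 0.39 (SE 0.058, limma adjusted p = 0.00342), and where its probes lie relative to the floxed part is not known here. Control 1 lay apart on the second principal component, which held 18.7% of the variance, with a score of -18.2 against -3.41 to 8.20 for the other controls. The mean of the Y-linked genes Uty, Kdm5d and Eif2s3y was 3.09 in control 3, against 8.44 to 8.73 on the other arrays. Control 3 thus lacked the Y-linked signal that the other controls and all 4 mutants had. The part of sex in the result was not tested. The labels do not say that the buds came from separate litters, so p-values measure only the spread between these samples, which may be partly technical. Of the 35 genes, 30 had a group mean above 5.99, the median of all probe sets. The other 5, whose means lay below it in both groups, were Ptprc, Cd14, Cd163, Ccr2 and Hcls1. A similar cut was passed by most genes: 12199 of 18193 lay above that median on 4 arrays. A signal above the median therefore does not by itself show that macrophages were detected in these whole buds.

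Averaged over the list, macrophage genes were modestly lower in mutants 2 to 4 and at the control level in mutant 1. Part of the list carried the difference, and the number of calls depended on the arrays included. Of the 35, 8 fell (limma adjusted p under 0.05 over all 18193 genes): the growth factor receptor Csf1r, the surface receptor Adgre1 (F4/80), the adaptors Tyrobp and Fcer1g, the Fc receptor Fcgr3, the mannose receptor Mrc1, the coagulation subunit F13a1 and the chemokine Pf4. That is 22.9% of the list, where 5.52% of all genes were called lower. None of the 35 was called higher, where 4.2% of all genes were, and at an unadjusted limma p under 0.05 the counts were 14 lower and 0 higher, where 12.5% and 11.3% of all genes were. The median log2 change was -0.22 over the list and -0.01 over all genes, and single members ran from -0.78 to 0.17. A negative change was found for 28 of 35 members and for 53.4% of all genes. All 4 mutants lay below all 4 controls for 6 members, 17.1% of the list, against 8.87% of all genes. No member had all mutants above all controls, against 8.92% of all genes. In RNA from whole buds, fewer macrophages and less RNA of these genes per macrophage cannot be told apart.

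**Figure D1:**
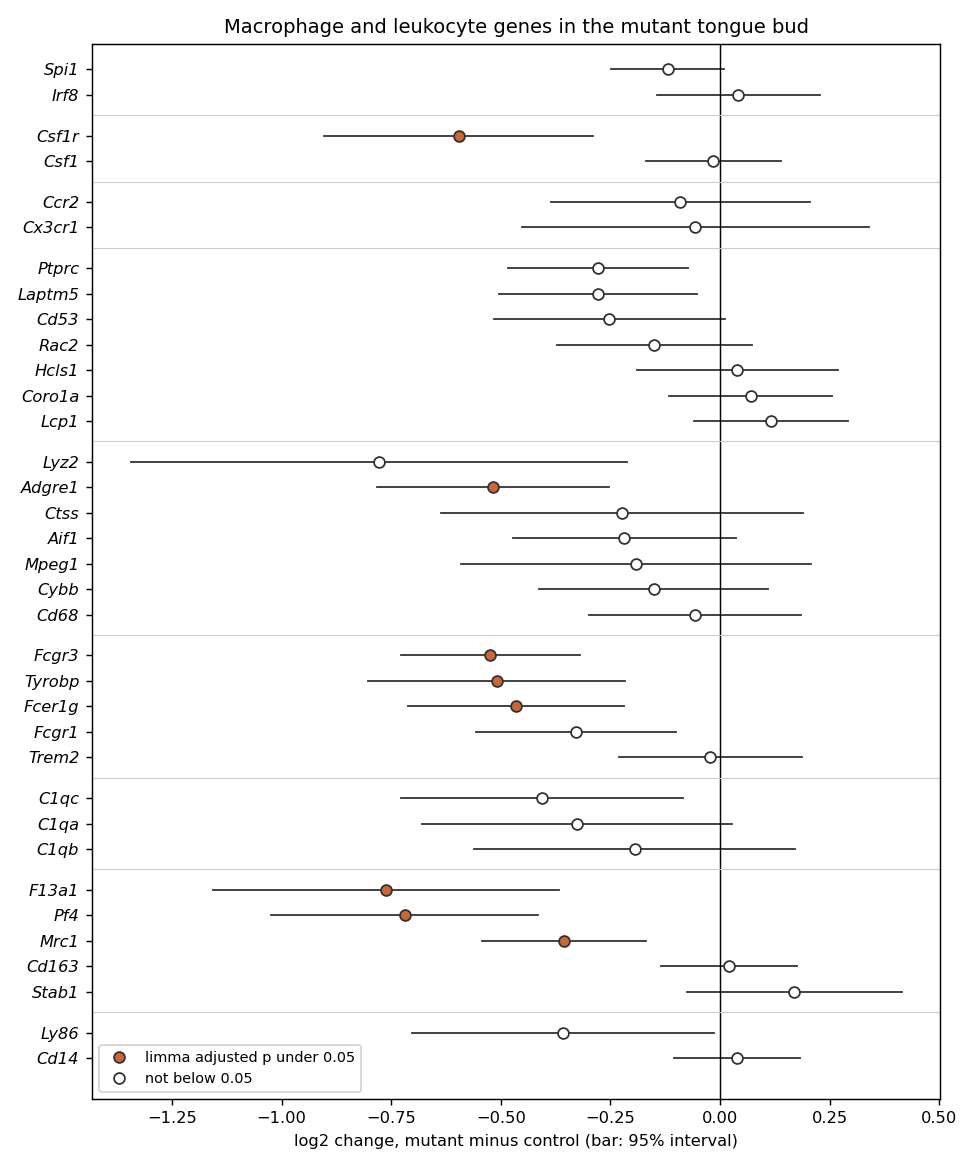
Log2 change (mutant minus control) of each of the 35 genes with its 95% confidence interval, ordered by role; filled points mark the 8 genes with a limma adjusted p under 0.05. The called genes lie between -0.76 (F13a1) and -0.36 (Mrc1), and the 7 positive changes reach no more than 0.17 (Stab1).

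The receptor of the growth factor pair fell and its ligand did not pass the test. Csf1r, the receptor tyrosine kinase that macrophages need to survive, gave 10.02, 10.08, 9.94 and 10.23 on control arrays 1 to 4, against 9.86, 9.54, 9.17 and 9.31 for mutant arrays 1 to 4. Every mutant lay below every control, with mutant 1 the nearest to the controls. Group means of 10.07 ± 0.12 and 9.47 ± 0.30 (SD, n = 4) put the mutants 1.51-fold lower (log2 change -0.60, SE 0.136, limma adjusted p = 0.0245). Csf1, the ligand, is made by mesenchymal and other tissue cells rather than by macrophages alone. Its control arrays gave 7.61, 7.53, 7.43 and 7.44, and its mutant arrays 7.45, 7.48, 7.64 and 7.37. The groups overlapped throughout, with a change of -0.01 (95% interval -0.17 to 0.14, limma adjusted p = 0.926). Csf1r had other probe sets that were dimmer: 1419873_s_at changed by -0.36 (limma adjusted p over probe sets 0.0897) and 1423593_a_at by -0.11 (0.493), while the set used here, 1419872_at, gave 0.0392 on that scale.

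The Fc receptors and their signalling adaptors gave 3 calls among 5 members, with a median change of -0.47. Fcgr3, a low-affinity receptor for antibody-coated particles, had the smallest adjusted p of the list. Control arrays 1 to 4 gave 7.49, 7.37, 7.52 and 7.44, against 7.10, 7.01, 6.66 and 6.96 for the mutants. The groups were apart by more than the whole range of the controls, with means of 7.46 ± 0.07 and 6.93 ± 0.19 (SD, n = 4), a 1.44-fold lower level (log2 change -0.52, SE 0.091, limma adjusted p = 0.00695). Fcer1g encodes the gamma chain through which several Fc receptors, Fcgr3 among them, reach the membrane and signal. It stood at 8.06, 8.03, 8.10 and 8.26 in controls and 7.89, 7.74, 7.34 and 7.62 in mutants, again without overlap (log2 change -0.47, SE 0.109, limma adjusted p = 0.0276). Tyrobp (DAP12) is the partner adaptor for Trem2 and other myeloid receptors. Its control values were 8.23, 8.52, 8.42 and 8.43 and its mutant values 8.29, 7.79, 7.61 and 7.88. Mutant 1 lay inside the control range and the other 3 mutants below it (log2 change -0.51, SE 0.130, limma adjusted p = 0.0391).

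The other Fc and adaptor genes did not pass. Fcgr1, the high-affinity Fc receptor, gave 6.23, 6.34, 6.33 and 6.33 in controls and 6.01, 6.29, 5.78 and 5.84 in mutants, with mutant 2 inside the narrow control range (log2 change -0.33, limma adjusted p = 0.0769). Trem2, a lipid-sensing receptor that signals through Tyrobp, had 6.22, 6.53, 6.45 and 6.43 against 6.58, 6.24, 6.26 and 6.46, a change of -0.02 (95% interval -0.23 to 0.19). The receptor Trem2 thus did not pass while its adaptor Tyrobp was called lower. The groups overlapped in both genes, and the difference between the 2 changes was not tested.

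Scavenger receptors and secreted proteins typical of tissue-resident macrophages split into 3 called genes and 2 that did not pass. Pf4, platelet factor 4, is a heparin-binding chemokine made by megakaryocytes and by embryonic macrophages. Control arrays 1 to 4 gave 9.20, 8.77, 8.94 and 8.88, against 8.52, 8.35, 7.89 and 8.15 for mutant arrays 1 to 4. The lowest control stood above the highest mutant, with means of 8.95 ± 0.18 and 8.23 ± 0.27 (SD, n = 4), a 1.65-fold lower level (log2 change -0.72, SE 0.135, limma adjusted p = 0.00992). Of 5 megakaryocyte and platelet markers measured, 0 were called in either direction by limma. The mean of that list per array was 6.35 to 6.54 in controls and 6.11 to 6.52 in mutants, and its part in the Pf4 result was not tested. Its integrin Itga2b, a defining marker of that lineage, was 7.996 to 8.079 in controls and 7.80 to 7.95 in mutants.

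F13a1, the catalytic subunit of the clot-stabilising transglutaminase factor XIII, is a marker of resident macrophages. It had 7.74, 7.49, 7.36 and 6.83 in controls and 6.83, 6.40, 6.60 and 6.54 in mutants, so that control 4 and mutant 1 met at the edge of both groups. The means were 7.36 ± 0.39 and 6.59 ± 0.18, a 1.70-fold lower level (log2 change -0.76, SE 0.175, limma adjusted p = 0.0253). It was 1 of 9 members that varied less among mutants than among controls. Mrc1, the mannose receptor CD206, had 8.17, 8.06, 7.96 and 8.05 in controls and 7.58, 7.93, 7.60 and 7.71 in mutants (log2 change -0.36, SE 0.0831, limma adjusted p = 0.0267). Here mutant 1 was the lowest of the mutants, unlike in the other 7 called genes. Stab1, a clearance receptor of macrophages and sinus endothelium, had the highest change of the list, 0.17 (95% interval -0.08 to 0.41, limma adjusted p = 0.391), with 6.83 to 7.20 in controls and 6.96 to 7.40 in mutants. Cd163, the haemoglobin scavenger receptor, was dim, at 3.211 to 3.496 in controls and 3.29 to 3.40 in mutants (log2 change 0.02, limma adjusted p = 0.897).

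The stretches of DNA just upstream of these genes were read for the sequence bound by PU.1, since many macrophage promoters carry it. The RefSeq promoter table of GRCm38.p6 had an entry for 28 of the 35 members and for 27025 genes. In the 250 bases before the start site, the PU box GAGGAA, on either strand, stood in 15 of the 28 members (53.6%) and in 6252 of all genes (23.1%). The longer form GAGGAAG, which contains it, stood in 28.6% of members and 10.4% of all genes. The RUNX motif TGTGGT stood in 17.9% of members and 14.2% of all genes. Of the 8 called genes 5 had an entry, and 4 of these held a PU box: Mrc1 with 3 matches, and F13a1, Pf4 and Fcgr3 with 1 each. Fcer1g held 0. The match nearest the start site began 35 bases before it in Mrc1, 66 in F13a1, 8 in Pf4 and 6 in Fcgr3. A match of letters describes the sequence and is not evidence that the site is bound. The 4 upstream stretches follow because they belong to the called genes with a match, each 5′ to 3′ on the gene's own strand, with capitals marking GAGGAA or its complement TTCCTC. They lie at chr2:14229164-14229413 on the plus strand (Mrc1), chr13:37050245-37050494 on the minus strand (F13a1), chr5:90772185-90772434 on the plus strand (Pf4) and chr1:171059404-171059653 on the minus strand (Fcgr3).
Mrc1: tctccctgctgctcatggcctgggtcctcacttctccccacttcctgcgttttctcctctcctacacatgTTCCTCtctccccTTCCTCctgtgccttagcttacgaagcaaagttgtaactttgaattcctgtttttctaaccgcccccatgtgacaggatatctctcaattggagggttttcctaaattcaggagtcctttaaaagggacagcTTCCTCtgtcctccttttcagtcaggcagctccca
F13a1: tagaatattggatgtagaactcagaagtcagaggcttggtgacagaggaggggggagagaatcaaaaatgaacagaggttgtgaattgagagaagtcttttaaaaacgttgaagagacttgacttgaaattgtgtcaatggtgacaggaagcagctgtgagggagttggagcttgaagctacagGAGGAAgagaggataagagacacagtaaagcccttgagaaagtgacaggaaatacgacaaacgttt
Pf4: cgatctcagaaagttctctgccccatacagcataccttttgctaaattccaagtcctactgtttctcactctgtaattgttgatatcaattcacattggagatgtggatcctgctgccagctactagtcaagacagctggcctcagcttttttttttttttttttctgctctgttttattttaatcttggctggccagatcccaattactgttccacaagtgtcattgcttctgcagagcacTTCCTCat
Fcgr3: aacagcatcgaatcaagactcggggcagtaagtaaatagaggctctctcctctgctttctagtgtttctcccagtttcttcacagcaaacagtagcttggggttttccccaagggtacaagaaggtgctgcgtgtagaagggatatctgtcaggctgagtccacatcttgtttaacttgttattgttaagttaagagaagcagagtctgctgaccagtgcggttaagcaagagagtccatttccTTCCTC

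Of the 7 macrophage surface, lysosome and oxidase genes, 1 fell. Adgre1, which encodes the F4/80 antigen used to stain mouse macrophages, had 7.68, 7.73, 7.85 and 7.62 on the control arrays and 7.55, 7.25, 7.03 and 6.98 on the mutant arrays. The highest mutant, mutant 1, was just below the lowest control, and the means were 7.72 ± 0.10 and 7.20 ± 0.26 (log2 change -0.52, SE 0.118, limma adjusted p = 0.0244). Lyz2, lysozyme of macrophages, monocytes and neutrophils, had the most negative change of all 35 genes without passing the test. Its values were 7.67, 7.87, 8.45 and 7.67 in controls and 7.82, 6.67, 6.88 and 7.18 in mutants, a change of -0.78 (SE 0.252, limma adjusted p = 0.0898). Control 3 and mutant 1 were the highest of their groups. The neutrophil genes S100a8 and S100a9 were highest on the same arrays, with S100a8 at 7.44, 6.35, 8.79 and 4.53 in controls and 8.14, 4.21, 4.70 and 4.71 in mutants. Of the 9 neutrophil markers measured, 1 was called, higher (Prtn3, 0.37, a call that held in 1 of 8 fits with an array left out), and the list mean per array ran from 5.30 to 6.60 in controls and 5.21 to 6.44 in mutants. The part of neutrophils in the Lyz2 signal was not tested.

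The remaining genes of this group overlapped between genotypes. Ctss, a lysosomal protease, gave 9.67, 9.89, 9.95 and 10.13 in controls and 10.24, 9.50, 9.30 and 9.71 in mutants (log2 change -0.22, limma adjusted p = 0.517). Mpeg1, a pore-forming protein of phagosomes, gave 7.70, 7.96, 7.89 and 7.99 against 8.22, 7.74, 7.22 and 7.60 (-0.19, limma adjusted p = 0.567). In both genes mutant 1 was above every control and mutant 3 was below every control. Aif1, the calcium-binding protein IBA1, changed by -0.22 (limma adjusted p = 0.284), Cybb, the membrane subunit of the phagocyte oxidase, by -0.15 (0.481), and Cd68, a lysosomal glycoprotein, by -0.06 (0.801).

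The chains of C1q, the first component of the classical complement pathway, did not pass, although the 4 mutants had the same order in each chain. C1qb, C1qc and C1qa lie next to each other on chromosome 4, with no other annotated gene between them. C1qa gave 7.87, 8.08, 8.21 and 7.99 in controls and 8.15, 7.75, 7.29 and 7.65 in mutants (log2 change -0.33, SE 0.157, limma adjusted p = 0.246). C1qb gave 8.15, 8.50, 8.45 and 8.41 against 8.61, 8.23, 7.72 and 8.17 (-0.19, SE 0.163, limma adjusted p = 0.524). C1qc gave 6.84, 7.16, 7.22 and 7.27 against 7.07, 6.76, 6.39 and 6.64 (-0.41, SE 0.143, limma adjusted p = 0.116). In each chain mutant 1 was the highest mutant and mutant 3 the lowest, with mutant 3 below every control. The other C1qb probe sets changed by -0.27 and -0.49. Of 5 classical complement partners, which are made largely outside macrophages, 1 was called: the protease gene C1s1 rose by 0.53 (limma adjusted p = 0.00341).

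Genes shared by most leukocytes gave 0 calls among 7, with a median change of -0.15. Ptprc, the CD45 phosphatase that defines leukocytes, had 5.89, 6.03, 5.94 and 5.75 in controls and 5.851, 5.438, 5.610 and 5.602 in mutants, with mutant 1 inside the control range (log2 change -0.28, SE 0.0911, limma adjusted p = 0.0925). Laptm5, a lysosomal membrane protein of blood cells, changed by -0.28 (limma adjusted p = 0.125) and Cd53, a leukocyte tetraspanin, by -0.25 (0.231). Rac2, the GTPase of the blood lineage, changed by -0.15 (0.405). The cytoskeletal genes lay on the other side of 0: Lcp1 (L-plastin) at 0.12 (0.417), Coro1a (coronin) at 0.07 (0.662) and Hcls1, a cortactin relative, at 0.04 (0.855). None of the 7 genes shared by leukocytes is limited to macrophages. Laptm5 was read by several probe sets, and the one without possible matches to other transcripts, 1447742_at, changed by 0.07.

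The transcription factors and the other receptors gave no call. Spi1, which encodes PU.1, had 6.04, 6.09, 6.22 and 6.12 in controls and 6.09, 5.93, 5.98 and 6.00 in mutants (log2 change -0.12, 95% interval -0.25 to 0.01, limma adjusted p = 0.247). Irf8, its partner in myeloid cells, changed by 0.04 (95% interval -0.14 to 0.23), while its dimmer probe set 1416714_at changed by -0.27 (limma adjusted p over probe sets 0.299). The lower bound for Spi1 is smaller in size than the change measured for any of the 8 called genes. Those 8 were selected by their own test results, and the difference from Spi1 was not tested. The group means of Spi1, 6.12 and 6.00, were also close to the median of all probe sets. Cx3cr1, the fractalkine receptor of resident macrophages and microglia, had 7.462, 7.267, 6.999 and 6.651 in controls and 6.707, 7.001, 7.186 and 7.263 in mutants (-0.06, limma adjusted p = 0.887). All 4 mutants lay within the range of the controls. The dimmer Cx3cr1 probe set 1450019_at changed by -0.13 (limma adjusted p over probe sets 0.539). There mutant 1 was the highest mutant, where it was the lowest in the set used. Ccr2, the receptor of recruited monocytes, changed by -0.09 (limma adjusted p = 0.734) with control 4 at 6.38 and the other 7 arrays at 5.71 to 5.89. Its dimmer probe sets 1421186_at and 1421188_at changed by -0.39 and -0.23 (limma adjusted p over probe sets 0.0537 and 0.103). For endotoxin recognition, Ly86 (MD-1) gave 8.16, 8.40, 8.37 and 8.32 in controls and 8.45, 7.89, 7.62 and 7.86 in mutants (-0.36, limma adjusted p = 0.193). Only mutant 1 was above the controls and the other 3 mutants lay below them. Cd14, the lipopolysaccharide co-receptor, changed by 0.04 (95% interval -0.10 to 0.18).

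**Figure D2:**
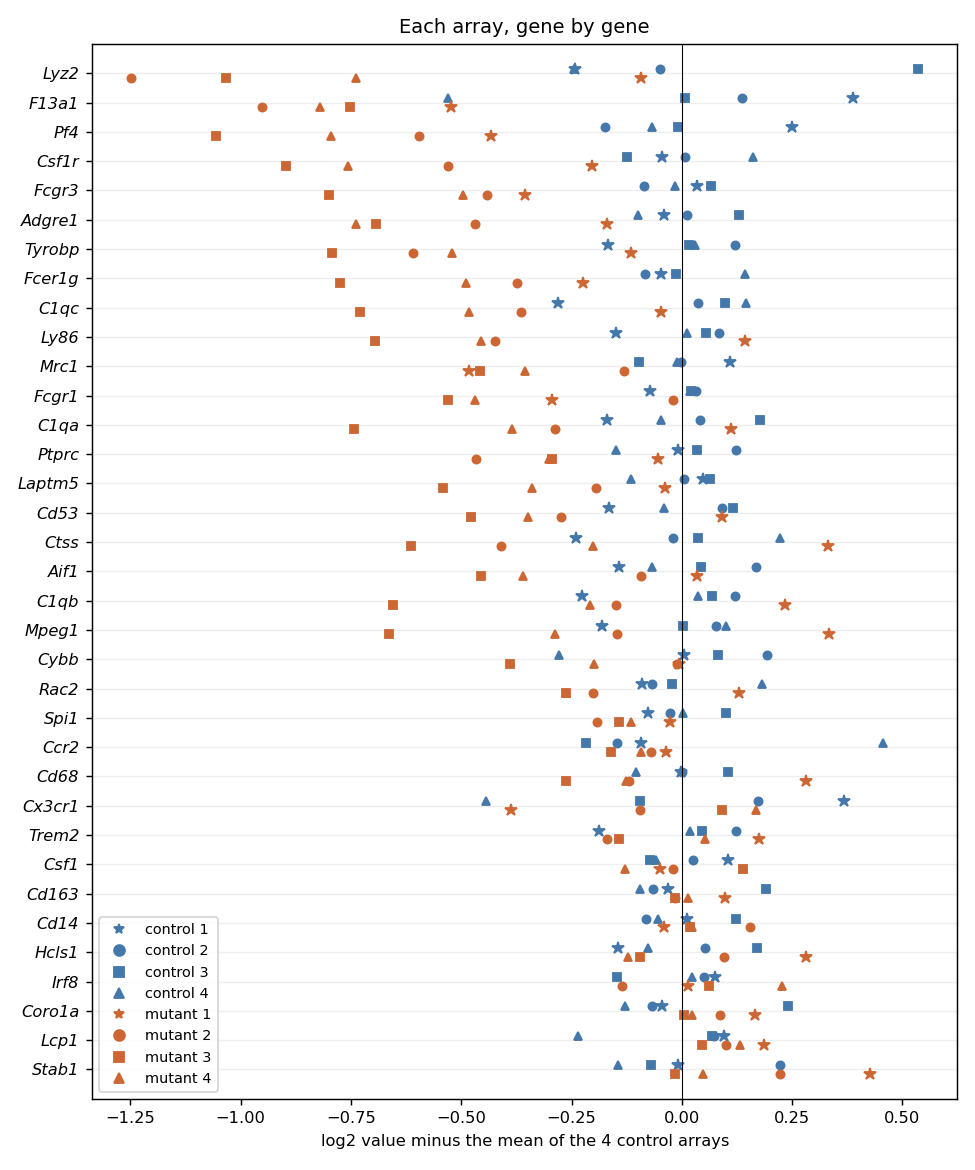
Log2 signal of each of the 35 genes on each array, as the difference from the gene's control mean; blue marks are controls, orange marks mutants, and the shape gives the replicate number (star, circle, square and triangle for 1 to 4). Mutant 1 is the rightmost mutant in 29 of 35 rows, and in the upper rows mutants 2 to 4 lie on the lower side.

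The mutants were not alike. Averaged over the 35 genes, the difference from the control mean was -0.04, 0.03, 0.05 and -0.04 on control arrays 1 to 4, and -0.02, -0.24, -0.42 and -0.28 on mutant arrays 1 to 4. Mutant 1 was therefore at the control level as a whole, and mutants 2 to 4 were below every control. Mutant 1 had 7 members below the control range and 9 above it, close to the background of 20% and 27.6% of all genes. Mutants 2, 3 and 4 had 19, 24 and 22 members below it, where 23.5%, 29.9% and 28.5% of all genes were. Above it they had 2, 1 and 2 members, where 22.3%, 21.8% and 22.2% of all genes were. Mutant 1 was the highest mutant in 29 of 35 members (82.9%) and in 38.2% of all genes, and mutant 3 the lowest in 65.7% and 34%. The full order of mutants 1, 2, 4 and 3 from high to low, noticed after the values were seen, held in 18 of 35 members (51.4%) and 10.9% of all genes.

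**Figure D3:**
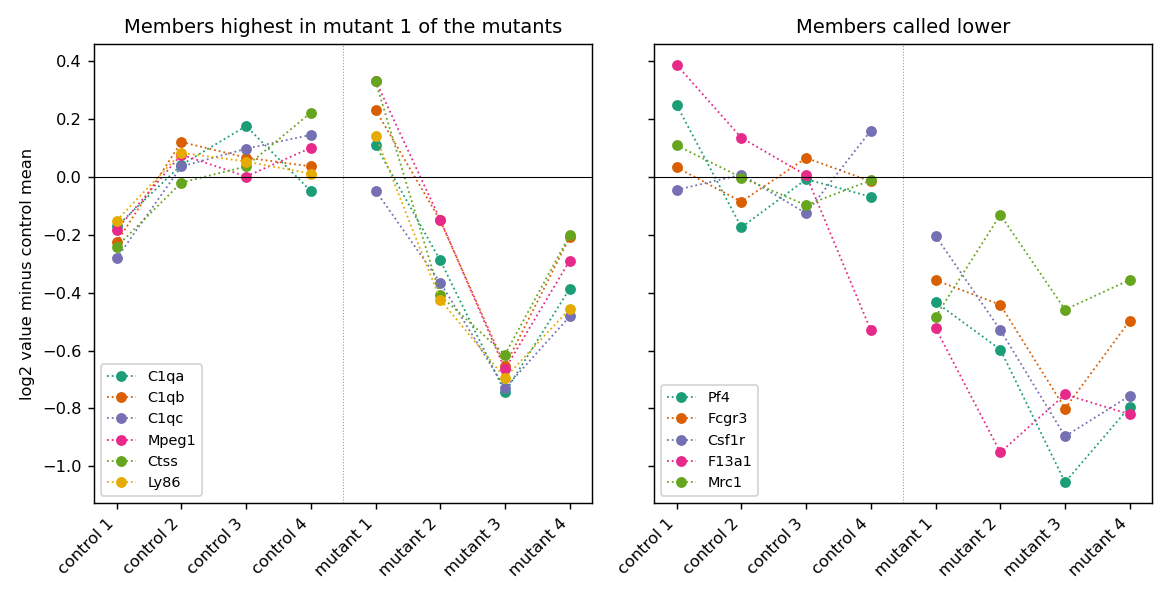
Log2 difference from the control mean on each of the 8 arrays, for the C1q chains, Mpeg1, Ctss and Ly86 on the left (chosen after their values were seen) and for Pf4, Fcgr3, Csf1r, F13a1 and Mrc1 on the right; dotted lines only link points of the same gene. On the left mutant 1 is above 0 in each gene but C1qc and mutant 3 is the lowest array throughout, and on the right every mutant value is below 0.

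Mutant 1 also stood at one end of other measures of the series. Its score on the second principal component was 15.2, against 3.98, -7.05 and -5.32 for mutants 2 to 4. The nuclear RNA Malat1 stood at 7.58 there, against 8.28, 9.80 and 9.24. Among mutants Malat1 was thus lowest where the macrophage genes were highest. In controls Malat1 ran from 7.11 to 9.73, and the list mean stayed between -0.04 and 0.05. A mean can hide single members: F13a1 and Cx3cr1 ranked the controls in the same order as Malat1, and Csf1r did not. The part of these measures in the result was not tested.

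The list had a wider spread among mutants than among controls. The median SD over 4 arrays was 0.13 in controls and 0.22 in mutants for the 35 genes, against 0.10 and 0.09 for all genes. The SD was larger in mutants for 26 of 35 members (74.3%) and for 40.2% of all genes. The median ratio of mutant to control SD was 1.498 over the list and 0.847 over all genes. The largest ratios belonged to Fcgr1 (4.72), Ly86 (3.40), Mpeg1 (3.22) and Fcgr3 (2.94), and the smallest to Ccr2 (0.17), where control 4 set the control spread. Without mutant 1 the median ratio over the list was 0.97. That array was noticed for its values, and leaving out an extreme array tends to lower the SD of its group. The ratio over all genes without it was not computed, so no conclusion is drawn. Without controls 1 and 3 it was 2.65.

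**Figure D4:**
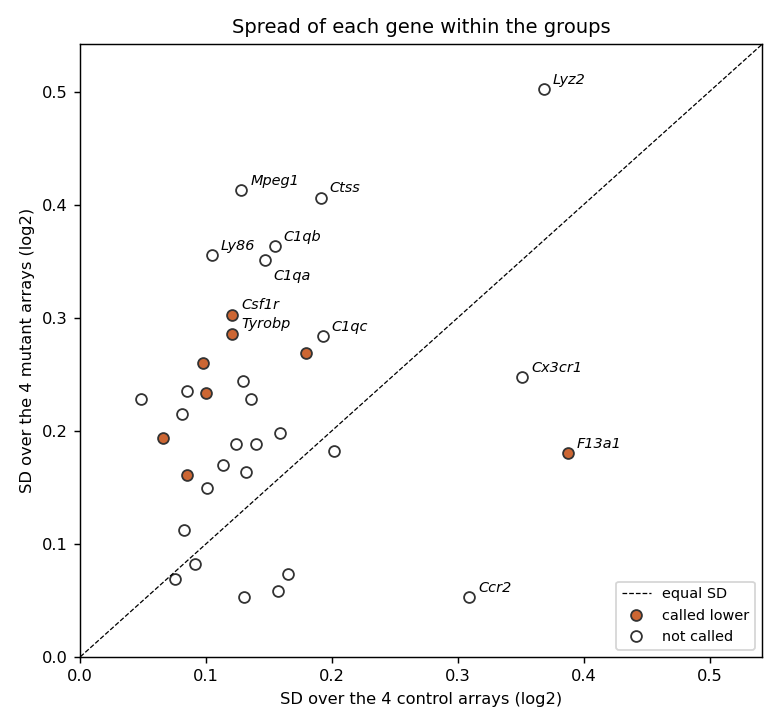
SD of each gene over the 4 mutants against its SD over the 4 controls, both in log2 units, with the line of equal spread. Of the 35 genes, 26 lie above the line, and Lyz2 has both SDs among the largest (0.37 and 0.50).

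The number of calls moved with the arrays included, and the genes called shifted with it. Leaving out control 1, 2, 3 or 4 left 7, 2, 4 and 4 members called lower, where 5.28%, 3.84%, 4.55% and 4.3% of all genes were called lower. Leaving out mutant 2, 3 or 4 left 4, 3 and 2, where 3.93%, 3.78% and 3.89% of all genes were. Pf4 and Fcgr3 passed in each of these 7 fits and without mutant 1. They were joined by all other called genes but Mrc1 without control 1, by no other without control 2 or mutant 4, by Csf1r and Mrc1 without control 3, by Adgre1 and F13a1 without control 4, by Mrc1 and Fcgr1 without mutant 2 and by Fcer1g without mutant 3. Their changes ranged from -0.82 to -0.61 and from -0.58 to -0.43 over the 8 fits. The other 6 kept their direction but lost the call in 5 of 8 fits (Csf1r, Adgre1, Fcer1g, F13a1) or 6 of 8 (Tyrobp, Mrc1). Their changes stayed between -0.73 and -0.50 (Csf1r), -0.63 and -0.44 (Adgre1), -0.55 and -0.36 (Fcer1g), -0.94 and -0.63 (F13a1), -0.64 and -0.42 (Tyrobp) and -0.43 and -0.31 (Mrc1). The exact two-sided permutation test of single genes over 4 against 4 arrays cannot go below 0.0286, which the 6 members without overlap (17.1%) reached. Any gene without overlap reaches it, and 8.87% of all genes had all mutants below and 8.92% all mutants above the controls. On this two-sided test the list therefore does not stand out.

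Without mutant 1, 14 members were called lower, where 5.27% of all genes were. Mrc1 lost its call there (-0.31), and 7 members gained one. Ly86 then changed by -0.52 (limma adjusted p = 0.00851), Lyz2 by -1.01 (0.0176), Ptprc by -0.35 (0.0282), C1qc by -0.53 (0.0324), Cd53 by -0.37 (0.0324), Laptm5 by -0.36 (0.0419) and C1qa by -0.47 (0.0482). This choice of array rests on values seen in the same data, so these calls are a description of the other 7 arrays. Without controls 1 and 3 together, which leaves 2 controls, 0 members were called lower, where 4.05% of all genes were, and at an unadjusted p under 0.05 the counts were 10 lower and 1 higher (Coro1a), where 13.9% and 10.9% of all genes were. The lowest limma adjusted p was then 0.0612 (Fcgr3, -0.47), followed by 0.0683 (Csf1r, -0.68) and 0.0709 (Pf4, -0.60). Fewer arrays were fitted there, and the changes moved too, F13a1 to -0.56 and Csf1r to -0.68. Of 208 genes of the other lists, 25 were called lower and 11 higher there, against 28 and 19 with all arrays. The reason for the lost calls was not tested.

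**Figure D5:**
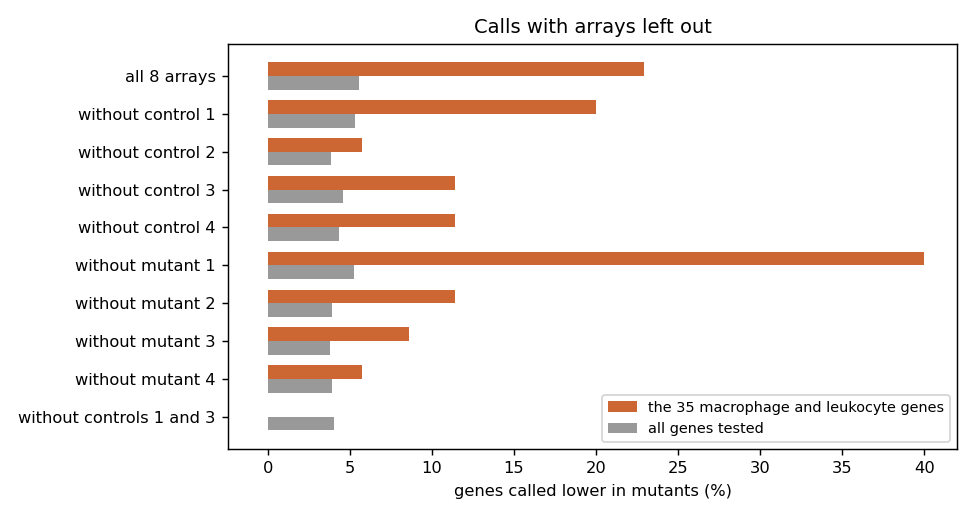
Percent of the 35 genes and of all 18193 genes called lower in mutants (limma adjusted p under 0.05) with all arrays and with the named arrays left out. The list runs from 0 members called without controls 1 and 3 to 14 without mutant 1, while the share of all genes stays between 3.78% and 5.52%.

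Probe sets not used for the list gave a second reading for 15 members. Of 61 probe sets naming a member, 26 were not used: 20 had a negative and 6 a positive change, 0 were called by limma over all probe sets in either direction, and 3 were lower and 0 higher at an unadjusted p under 0.05, where 9.52% and 10.1% of all probe sets naming 1 gene were. They are dimmer by construction and were read from the same RNA samples, so they are not independent of the sets used. Sets of 1 gene did not always give the same change, as for Irf8 and Laptm5.

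Other genes of the same cells gave a mixed picture. Of 32 further macrophage and microglia genes, 3 fell, 2 rose and 27 did not pass, with a median of -0.15. Ms4a6b, a membrane protein of myeloid cells, had 7.61, 7.85, 7.68 and 7.66 in controls and 7.23, 7.20, 6.96 and 7.10 in mutants (log2 change -0.58, limma adjusted p = 0.00179). Cd86, a costimulatory ligand of antigen-presenting cells, fell by 0.45 (limma adjusted p = 0.00578). Both calls held with each array left out and without controls 1 and 3, and in both genes mutant 1 was below every control. Clec4n (Dectin-2) changed by -0.33 (limma adjusted p = 0.0494) and lost its call in 7 of 8 fits with 1 array left out, keeping it only without mutant 1. Mertk, a receptor for dying cells that mesenchyme and other cells can also make, rose by 0.76 (limma adjusted p = 0.0021), and the endocytic adaptor Dab2 rose by 0.34 (0.0313), a call lost in 6 of 8 fits with 1 array left out and kept without control 1 or mutant 4. Of 26 haematopoietic signalling genes, 1 was called lower and 0 higher, and the median was -0.12.

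Among 15 ligands for macrophage growth and recruitment, Csf1 included, 2 fell and 0 rose, with a median of -0.08. Ccl2, the main ligand of Ccr2, had 6.07, 6.08, 6.18 and 5.87 in controls and 5.81, 5.68, 5.47 and 5.68 in mutants (log2 change -0.39, limma adjusted p = 0.022). It lost the call without control 2, control 3, mutant 2, mutant 3 or mutant 4, with changes of -0.45 to -0.33 over the 8 fits. Ccl12, a related chemokine, had 5.51, 5.52, 5.98 and 5.74 against 5.32, 5.12, 5.11 and 4.99 (-0.55, limma adjusted p = 0.0139) and kept its call with each array left out. Il34, the other ligand of Csf1r, changed by -0.11 (95% interval -0.32 to 0.11).

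Genes for the recognition of dead cells, a task shared by macrophages and their neighbours, moved in both directions: 2 of 16 rose, 4 fell and 10 did not pass. Itgb3, the beta-3 integrin, rose by 1.27 (limma adjusted p = 0.000157), and Mertk rose as given above. The bridging proteins Gas6 and Pros1, which link dying cells to Mertk and its relatives, fell by 0.55 and 0.28 (limma adjusted p = 0.000676 and 0.0145). The engulfment receptor Megf10, also a gene of muscle progenitors, fell by 0.37 (0.00775). The fatty acid and scavenger receptor Cd36 fell by 0.80 (0.008). These genes are expressed by muscle, mesenchyme or endothelium as well as macrophages, and their cell of origin in these buds was not measured. Antigen presentation genes gave 0 calls among 10 (limma). The 2 with the smallest p, named for that reason only, were B2m (-0.19) and H2-Eb1 (-0.18).

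Markers of other cell types give the setting of these values. Lymphocyte markers were dim, with list means of 4.74 to 4.94 in controls and 4.74 to 4.98 in mutants and 8 of 9 below the median of all probe sets in both groups. Of the 9, 1 was called, Rag1 (0.39), and that call was lost with any array left out. Erythroid markers had list means of 8.60 to 8.76 and 8.44 to 8.76 with 0 of 8 called. Endothelial markers rose in 4 of 13 genes and fell in 0, with a median of 0.31 and list means of 7.98 to 8.07 in controls and 8.14 to 8.42 in mutants. Cdh5 (VE-cadherin) rose by 0.51 (limma adjusted p = 0.00342) and Pecam1 by 0.34 (0.00984). Lyve1, made by lymphatic endothelium and by some tissue macrophages, had 5.76, 5.40, 5.72 and 5.02 in controls and 4.09, 4.93, 4.96 and 4.71 in mutants (-0.80, limma adjusted p = 0.047), and its call held in only 1 of 8 fits with an array left out. Of 9 mast cell markers, Kit (0.51) and Gata2 (0.52) rose and Hdc fell (-0.49), the Gata2 call being lost in 6 of 8 fits with 1 array left out. The other 6 mast cell markers did not pass, with changes from -0.51 to 0.09, and the median of that list was -0.13. Skeletal muscle markers fell in 5 of 10 genes, with list means of 10.14 to 10.45 in controls and 9.60 to 9.89 in mutants. Lymphatic endothelial markers rose in 1 and fell in 2 of 5, mesenchyme in 3 and 2 of 10, neuronal in 2 and 4 of 7, Schwann and glial in 0 and 3 of 6, epithelial in 0 and 1 of 8 and cell cycle markers in 1 and 0 of 7. The part of these shifts in the macrophage values was not tested.

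The members also varied together inside the groups. The correlation of each gene's deviations from its group means with the mean deviation of the other members, over 8 arrays, had a median of 0.70 in the list and 0.15 over all genes, where each gene is set against the mean of the 35. It was over 0.6 in 23 of 35 members (65.7%) and 15.2% of all genes. It was highest for C1qa and Ly86 (0.97 each), Cd68 (0.96) and Cd53 (0.95), and lowest for Cx3cr1 (-0.52), Csf1 (-0.50), Irf8 (-0.31) and Mrc1 (-0.23). The 10 genes most like the list by this measure, from 0.97 to 0.99, were Pdk2, Tm7sf3, Ccng1, Polr3gl, Plat, Tcp11l2, Csgalnact1, Retreg3, Akap5 and Kidins220, none of them a member. Of these, 1 was called between genotypes: Akap5 fell by 0.57 (limma adjusted p = 0.00319). All genes on an array share its position on the second principal component, so likeness over 8 arrays does not single out macrophage RNA.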

How the data were processed

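RNA of 8 tongue buds (4 control, 4 mutant, numbered 1 to 4 in the titles) was hybridised to one-colour Affymetrix arrays. The authors deposited log2 expression values per probe set, made with RMA, per the submitters' processing notes. RMA aligns the arrays' distributions, so a shift common to all genes would be removed. Its version is not given in the sources used here. The number of arrays limits the precision.

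Of 45101 probe sets, 34945 named 1 gene in the platform annotation, 932 several and 9160 none, and 64 were controls. Of those naming 1 gene, 34741 matched a RefSeq identifier and 0 symbols changed. The brightest of a gene's sets stood for it. Differences were tested in R 4.3.3 with the limma package, version 3.58.1 (lmFit, then eBayes, two-sided, prior degrees of freedom 3.4) over 18193 genes, with Benjamini-Hochberg adjustment and calls at 0.05. The procedure was tested on simulated data. Confidence intervals are 95%. The members and lists were chosen with earlier results of these data known. All members are named. Of each of the 19 other lists the rule takes genes that passed (at most 6) or else the 2 with the smallest p, and 10 genes of like pattern. S100a8, S100a9, Il34 and Malat1 lie outside this rule and were chosen with their values seen. Of the named list genes only those nearest to macrophage biology are described, and other list genes enter by their list's counts. The 20 alternatives were a block for the replicate number, scaling, dim probe sets, the choice of probe set, the variance model and arrays left out. Promoters came from the RefSeq table for GRCm38.p6.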

Additional observations from a re-analysis of the deposited data

Results flagged for a closer look

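In groups of 4 arrays, 1 array stood far from the other 3 by Dixon's criterion in 11 of 176 groups, 3 of them among the 70 groups of the 35 members. Chance gives about 1 in 20. Among members, Fcgr1 was 6.23 on control 1 (6.33 to 6.34 on the other controls), Lcp1 was 7.52 on control 4 (7.82 to 7.85) and Rac2 was 6.40 on mutant 1 (6.00 to 6.07). Control 1 was also high for Dab2, at 9.55 (9.22 to 9.28), and for Clec4n, at 5.31 (4.97 on the other 3). Control 2 was high for Kit, at 8.52 (8.34 to 8.37), and for Nefl, a neurofilament gene, at 8.91 (8.47 to 8.51). Mutant 3 was low for Kit, at 8.64 (8.965 to 9.005), for B2m, at 11.33 (11.47 to 11.50), and for the muscle factor Myog, at 12.22 (12.38 to 12.40). Gas6 was 7.34 on mutant 4 (7.14 to 7.16).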

How the results depend on the processing

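Of 20 alternatives, 0 gave a member called higher, and the median change of the members stayed between -0.34 and -0.11. The main count of 8 members called lower was 3 with the replicate number as a block (F13a1, Pf4 and Fcgr3), where 3.5% of all genes were. It was 0 without controls 1 and 3 and 2 to 14 with each array left out, and it stayed at 7 to 9 in the others. In the others 4.22% to 6.34% of all genes were called lower, apart from the fits of brighter genes only. Those fits held 29 and 30 members, and 8.91% and 8.93% of their genes were called lower. Whether equal replicate numbers mark a pair or a batch is not stated in the labels. Deviations of samples with equal numbers correlated at -0.54 to -0.11, which cannot decide it. In those others the losses were Csf1r with the mean of its probe sets (-0.36, limma adjusted p = 0.052), Tyrobp with the most variable probe set per gene (0.0581), Mrc1 with array weights (0.0596), where Ptprc and Lyz2 gained a call, and Adgre1, not measured without sets that can match other transcripts. Genes of other lists called higher, 19 in all, were 8 with the block, 11 without controls 1 and 3 and 9 to 15 with each array left out. The median ratio of SDs, 1.498, was 2.65 without controls 1 and 3 and 0.97 to 2.10 with each array left out. Changes that turned sign belonged to genes that were not called. Csf1 became 0.0020 with median centring, 0.0089 with the mean of probe sets, 0.038 with the most variable set and 0.0014 without controls 1 and 3. Irf8 became -0.11 and -0.27 with the mean and the most variable set. Laptm5 became 0.0685 without sets that can match other transcripts, Gp1bb 0.11 with the most variable set, and Cx3cr1 0.0799 without controls 1 and 3. With each array left out Ccr2 ran from -0.16 to 0.062, Cd163 ran from -0.011 to 0.084, Cd68 ran from -0.17 to 0.011, Csf1 ran from -0.066 to 0.023, Cx3cr1 ran from -0.20 to 0.067, Hcls1 ran from -0.041 to 0.097, Irf8 ran from -0.020 to 0.10 and Trem2 ran from -0.087 to 0.028. The cause was not tested. The number of arrays and, for Ptprc, Cd14, Cd163, Ccr2 and Hcls1, a signal below the median of probe sets limit what can be read.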
